A study of Xenopus laevis with 4 samples.

Results

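The genes described here encode ephrins, Eph receptors, semaphorins, plexins, neuropilins, Slits, Robos, netrins, the netrin receptor Dcc, neogenin (Neo1) and repulsive guidance molecule A (Rgma). They were chosen by symbol, as every probe set whose single gene symbol names a member of these families. No measured value entered this rule, but the families were picked with earlier results of these data known. The rule found 53 of 16745 probe sets, which stand for 39 of 11295 genes, with the .L and .S homeologs of this allotetraploid frog counted as separate genes. The platform measured 8 ephrin, 7 Eph receptor, 8 semaphorin, 6 plexin and neuropilin, 4 Slit and Robo, and 6 netrin, Dcc, neogenin and Rgma genes under this rule.

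RNA was measured with Affymetrix arrays in whole skins of Xenopus laevis embryos at stage 24. The SP600125 group (2 arrays) came from embryos exposed between stages 14 and 24 to SP600125, which inhibits c-Jun N-terminal kinases (JNK), at a dose labelled 100 mM. The control group (2 arrays) is labelled as treated with nothing, and no vehicle is named. Embryos of both groups were raised at 15 °C, and each array held RNA pooled from 20 skins, with nothing said about separate clutches. P-values therefore rest on the spread between these arrays, and that spread may be technical only. JNK activity itself was not analysed here. Values are RMA levels on the log2 scale, in which the same step means the same fold change. Where each array's level is given, the values of a group are those of replicate 1 and replicate 2, in that order.

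Guidance proteins steer the movement of cells and growth cones by attraction or repulsion at contact or over a distance. Ephrins are ligands bound to the cell surface whose binding to Eph receptor tyrosine kinases keeps cell groups apart at tissue boundaries. Semaphorins act through plexins, with neuropilins as co-receptors for the secreted class, Slits act through Robo receptors, and netrins and Rgma act through Dcc and neogenin. In vertebrate embryos many of these genes are expressed in neural tissue, neural crest, somites and vessels, and several also in epithelia.

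The skin label was set against marker lists, which were chosen with earlier results of these data known. Of 53 epidermal, multiciliated cell and ionocyte genes measured, 48 had a mean of at least 5, and their summed linear levels were 141467 and 131159 in SP600125 skins and 129693 and 122164 in control skins. Markers of tissue under the skin were measured too, with 33 of 62 muscle and somite genes and 47 of 61 neural and neural crest genes at a mean of at least 5. Over all genes with 1 probe set each, 8654 of 11295 had such a mean, so these counts alone cannot show tissue under the skin. RMA has no zero level, so no marker can be called absent.

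Guidance genes lay lower in the SP600125 skins by small amounts, and no single one passed the test. Of the 53 probe sets, 42 had a lower mean after SP600125 and 11 a higher one, against a lower mean in 47.3% of all probe sets. The median difference, SP600125 minus control, was −0.18 over the guidance probe sets and 0.01 over all 16745. The differences ran from −0.77 for nrp2.S to 0.31 for sema4b.S, and 0 probe sets differed by 1 log2 unit (2-fold) or more. P-values were adjusted over all 16745 probe sets after Benjamini and Hochberg. By limma 0 guidance probe sets and 0% of all probe sets passed at an adjusted p under 0.05, and every adjusted p was 1. This fit counts any variation shared by same-numbered arrays as error, since the labels do not pair them. That none passed is therefore not evidence of no change. At an unadjusted p under 0.05, 1 guidance probe set was lower, against 0.908% of all probe sets, and 0 were higher, against 0.699%. The lower one was nrp2.S, whose difference lay between −0.90 and −0.63 when an array was left out. Its groups did not overlap, so leaving out an array could not change its sign. In whole skins, fewer cells of a type and less RNA per cell cannot be told apart.

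Both SP600125 arrays lay below both controls for 9 guidance probe sets, or 17.0%, against 9.25% of all probe sets. They lay above both controls for 3, or 5.66%, against 11.9% of all probe sets. Those 12 probe sets belong to epha4.L, ephb3.L, sema3a.L, nrp2.S, slit2.S, dcc.L, ntn5.L (both its probe sets) and rgma.L below, and to epha8.L, sema4b.S and dcc.S above. Among all probe sets 0.639% were below both controls by at least 2-fold and 0.496% above by at least 2-fold, and 0 guidance probe sets were either.

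The size of the shift differed with the arrays compared. Control replicate 1 held the highest of the 4 values for 31 guidance probe sets, or 58.5%, against 25.8% of all probe sets. SP600125 replicate 2 held the lowest value for 24, or 45.3%, against 25.6% of all probe sets. Without control replicate 1 the median difference was −0.02 and 30 of 53 means were lower, and without SP600125 replicate 2 they were −0.05 and 31. Without control replicate 2 the median was −0.40 with 41 lower means, and without SP600125 replicate 1 it was −0.24 with 39. With an array left out, the groups no longer held the same replicate numbers. Replicate number held 68.2% of the sum of squares of the guidance probe sets, and treatment 19.1%. The part of that imbalance in these changes was not tested.

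**Figure D1:**
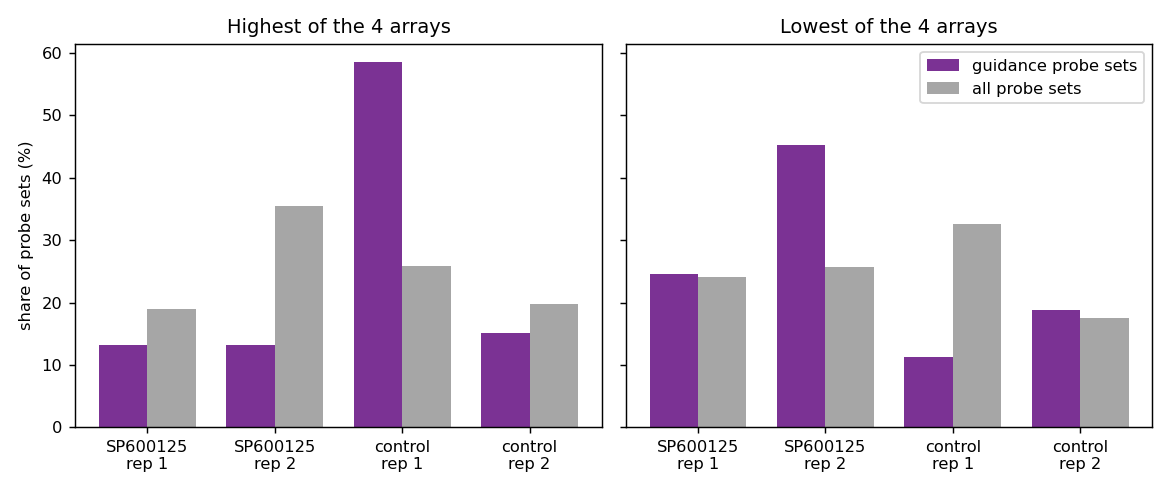
Share of probe sets (%) that had their highest value (left) or lowest value (right) in each of the 4 arrays, for the 53 guidance probe sets (purple) and all 16745 probe sets (grey). Control replicate 1 held the highest value for 58.5% of the guidance probe sets against 25.8% of all, and SP600125 replicate 2 the lowest for 45.3% against 25.6%.

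The medians over the 53 probe sets differed in sign between single arrays. SP600125 replicate 1 minus control replicate 1 gave −0.29 and SP600125 replicate 2 minus control replicate 1 gave −0.49. Against control replicate 2 the medians were 0.11 for SP600125 replicate 1 and −0.10 for SP600125 replicate 2. The only positive median and the most negative one thus both compared arrays of different replicate number. Between arrays of the same number the medians were −0.29 and −0.10. The labels do not say what that number marks. The same 4 medians over all probe sets lay between −0.03 and 0.08.

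Lower means were most frequent among the brighter guidance probe sets. Of 37 with a mean level of at least 5, 33 had a lower mean, against 48.2% of all probe sets that bright, and the median difference was −0.26. Of the 16 dimmer ones 9 were lower. RMA compresses differences near the floor of an array, but whether this bears on the dim probe sets was not tested. The largest guidance difference, −0.77 for nrp2.S, was in a dim one. All probe sets of 10 genes were dim. Of ligand probe sets 25 of 30 were lower (median −0.20), and of receptor probe sets 17 of 23 (median −0.17).

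Ephrins, the ligands of Eph receptors, had 9 of 10 lower means and a median difference of −0.41. In none of the 10 did the groups separate, against 9.25% of all probe sets below both controls and 11.9% above. With so few probe sets this is not read as a trait of ephrins. The 5 B-class probe sets, whose products span the membrane and can signal into their own cell, had differences from −0.55 to −0.39. The 5 A-class probe sets, whose products are held by a lipid anchor, ran from −0.48 to 0.24.

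The ephrin-B2 homeologs, whose product marks arteries and somite boundaries in vertebrates, had like profiles across the arrays. efnb2.L read 8.29 and 8.93 in SP600125 skins and 9.65 and 8.54 in control skins, a difference of −0.49 ± 0.48 (SE). efnb2.S read 8.84 and 9.47 in SP600125 skins and 10.10 and 9.08 in control skins, a difference of −0.44 ± 0.46. In both genes control replicate 1 was the highest array and SP600125 replicate 2 exceeded control replicate 2, so the groups overlapped.

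Ephrin-B3, another transmembrane ephrin, was measured by 2 probe sets. The brighter efnb3.L probe set read 7.97 and 7.30 in SP600125 skins, against 8.27 and 7.79 in control skins (difference −0.39 ± 0.34). The other read 5.98 and 3.89 in SP600125 skins and 6.41 and 4.50 in control skins (difference −0.52 ± 1.01). Both were low in replicate 2 of each group, and the second spanned 2.51 log2 units over the 4 arrays.

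The ephrin-B1 gene efnb1.L, named here after its values were seen, spread most of all the guidance probe sets, over 2.82 log2 units. It read 9.12 and 6.69 in SP600125 skins, against 9.51 and 7.41 in control skins. The 2 arrays of each group lay further apart than the group means, which differed by −0.55 with a 95% confidence interval from −3.68 to 2.57. With the arrays taken as unpaired, no difference within that wide interval could be resolved. SP600125 minus control was −0.39 between the replicate 1 arrays and −0.72 between the replicate 2 arrays, which the labels do not pair.

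The ephrin-A1 homeologs differed in sign. efna1.L read 8.11 and 6.76 in SP600125 skins and 8.21 and 7.62 in control skins (difference −0.48 ± 0.55). efna1.S read 5.13 and 4.90 in SP600125 skins and 5.03 and 4.52 in control skins (difference 0.24 ± 0.27). The groups overlapped in both genes. The other A-class genes, efna3.L and efna4.L, had differences from −0.21 to −0.11 over 3 probe sets.

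**Figure D2:**
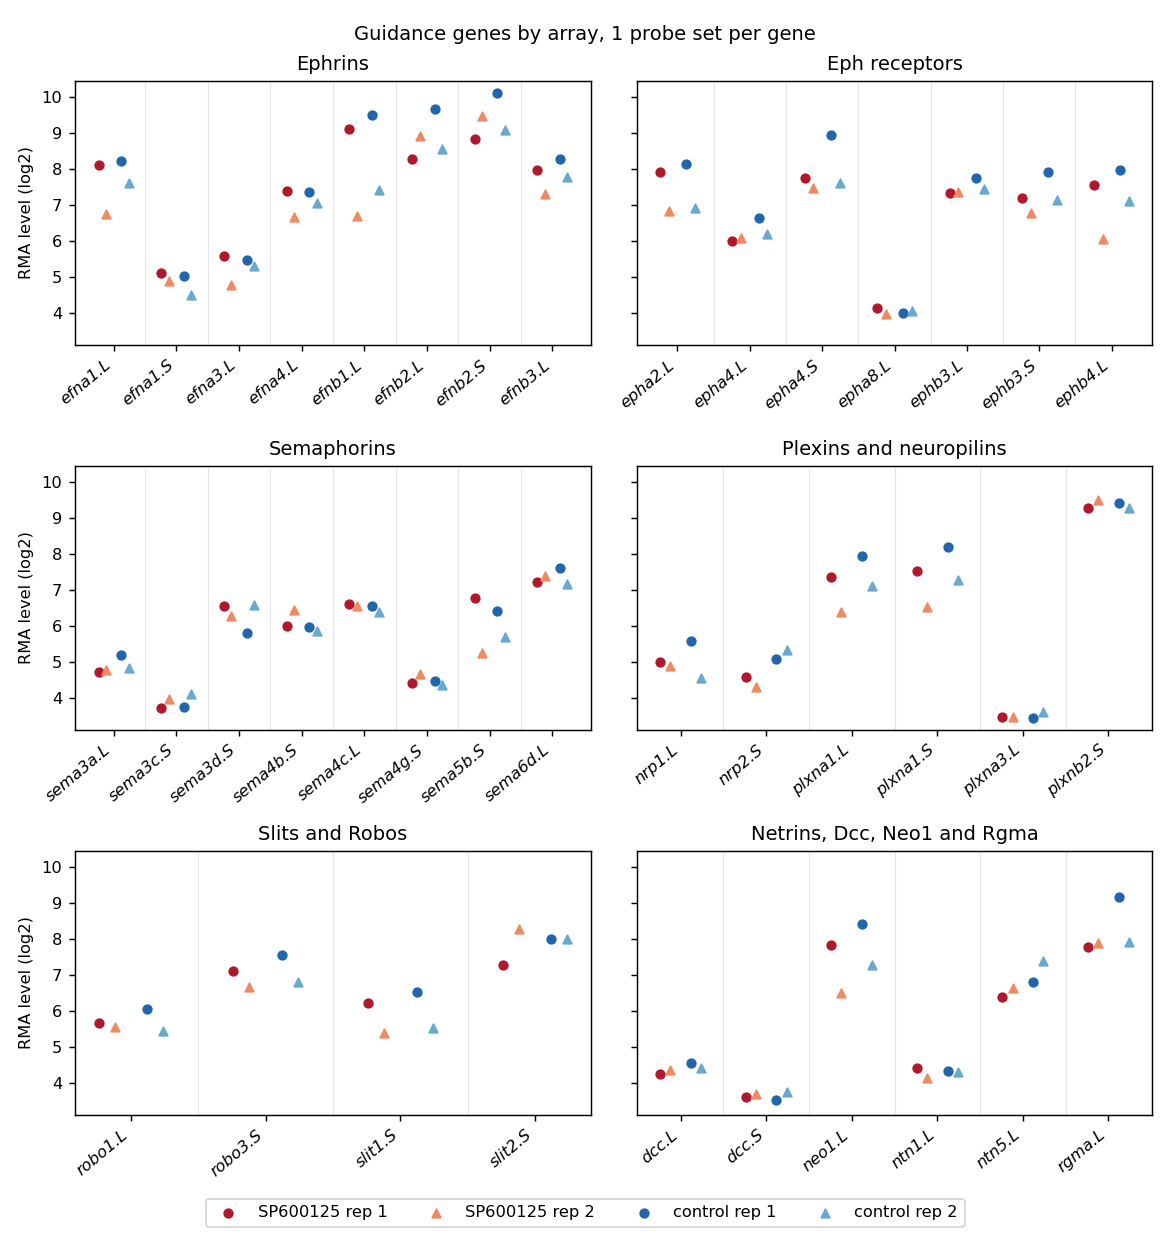
RMA level (log2, y axis) of the 39 guidance genes (x axis, 1 probe set per gene, the one with the highest mean) in each array, by family. Red marks are the 2 SP600125 arrays and blue marks the 2 controls, with circles for replicate 1 and triangles for replicate 2. For efnb1.L the marks split by replicate, at 9.12 and 9.51 against 6.69 and 7.41, while for nrp2.S both red marks lie below both blue ones.

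Eph receptors had 6 of 8 lower means and a median difference of −0.31. EphA4, a receptor that in Xenopus keeps neural crest streams apart, was measured as both homeologs. epha4.L read 6.01 and 6.10 in SP600125 skins, against 6.66 and 6.20 in control skins, a difference of −0.37 ± 0.25 with unadjusted p = 0.205 and adjusted p = 1 (limma). Its groups did not overlap, but the gap between them was 0.0952, less than the distance between the 2 controls. epha4.S read 7.75 and 7.46 in SP600125 skins and 8.95 and 7.62 in control skins (difference −0.68 ± 0.51), with control replicate 1 far above the other 3 arrays.

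The EphB receptors bind mainly B-class ephrins. ephb3.L read 7.33 and 7.37 in SP600125 skins, against 7.75 and 7.46 in control skins (difference −0.25 ± 0.21), and its groups did not overlap, by a gap of 0.0944. ephb3.S read 7.19 and 6.79 in SP600125 skins and 7.91 and 7.16 in control skins (difference −0.54 ± 0.35), and its groups overlapped. The receptor gene ephb4.L, which marks veins and was named after its values were seen, read 7.56 and 6.06 in SP600125 skins and 7.98 and 7.12 in control skins. Its difference of −0.74 had a 95% confidence interval from −2.47 to 1.00, and its 2 SP600125 arrays lay on both sides of control replicate 2.

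The A-class receptor genes epha2.L and epha8.L gave smaller differences. epha2.L, an epithelial receptor gene in mammals, differed by −0.16 ± 0.60 and was high in replicate 1 of each group. One epha8.L probe set read 3.70 and 3.82 in SP600125 skins, against 3.56 and 3.42 in control skins (difference 0.27 ± 0.20), without overlap. The other, also dim, differed by 0.03 ± 0.20 and overlapped.

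Semaphorins stood nearest to the whole array, with 7 of 11 lower means and a median difference of −0.04. The secreted class, which repels axons through neuropilin and A-class plexins, was represented by sema3a.L, sema3c.S and sema3d.S. The dim probe set of sema3a.L read 4.72 and 4.79 in SP600125 skins, against 5.19 and 4.83 in control skins (difference −0.26 ± 0.22), separated by 0.0416. sema3d.S read 6.56 and 6.30 in SP600125 skins and 5.82 and 6.58 in control skins (difference 0.23 ± 0.34), so its controls lay on both sides of the SP600125 arrays. sema3c.S was dim in both its probe sets, with differences of −0.02 and −0.09.

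Class 4 semaphorins are membrane proteins, several of which act on B-class plexins. sema4b.S had the largest positive difference of all guidance probe sets, with 6.01 and 6.45 in SP600125 skins against 5.98 and 5.85 in control skins (0.31 ± 0.24, unadjusted p = 0.265 and adjusted p = 1 by limma). The groups did not overlap, but SP600125 replicate 1 exceeded control replicate 1 by only 0.0307. sema4c.L differed by 0.11 ± 0.19 and the dim sema4g.S by 0.13 ± 0.21.

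Among the other membrane semaphorins, sema6d.L, a ligand of plexin A1 in vertebrates, had differences of −0.05, −0.07 and −0.16 over 3 probe sets. The brightest of them read 7.23 and 7.40 in SP600125 skins and 7.61 and 7.16 in control skins. Its SP600125 arrays lay between the 2 controls. sema5b.S read 6.79 and 5.25 in SP600125 skins and 6.42 and 5.71 in control skins, with a difference of −0.04 and a 95% confidence interval from −1.75 to 1.66. Its replicate 1 arrays were high in both groups.

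Neuropilin 2, a co-receptor for secreted semaphorins and for some vascular growth factors, gave the clearest separation among the guidance genes. nrp2.S read 4.58 and 4.30 in SP600125 skins, against 5.08 and 5.33 in control skins, or a mean of 4.44 ± 0.19 against 5.21 ± 0.18 (SD, n = 2 each). The difference was −0.77 ± 0.23, or 0.588-fold, with a 95% confidence interval from −1.38 to −0.15, unadjusted p = 0.0263 and adjusted p = 1 by limma. The gap of 0.504 between the groups exceeded the distance between the 2 arrays of either group. The probe set was dim, with a mean under 5 over the 4 arrays, and no second probe set of the gene was measured. nrp1.L, the co-receptor gene for Sema3A, read 5.01 and 4.90 in SP600125 skins and 5.58 and 4.56 in control skins (difference −0.12 ± 0.40), with the SP600125 arrays between the controls.

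Plexin A1, the signalling receptor that pairs with neuropilins, had near-identical profiles in its homeologs. plxna1.L read 7.35 and 6.40 in SP600125 skins and 7.94 and 7.11 in control skins (difference −0.65 ± 0.48). plxna1.S read 7.54 and 6.54 in SP600125 skins and 8.19 and 7.28 in control skins (difference −0.69 ± 0.50). In both, SP600125 replicate 2 was the lowest array, control replicate 1 the highest, and SP600125 replicate 1 exceeded control replicate 2. Without SP600125 replicate 2 the differences were −0.18 for plxna1.L and −0.20 for plxna1.S, and without control replicate 1 both were −0.24.

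The B-class plexin gene plxnb2.S, a receptor for class 4 semaphorins, was level across the arrays. It read 9.27 and 9.49 in SP600125 skins and 9.42 and 9.27 in control skins, a difference of 0.04 with a 95% confidence interval from −0.53 to 0.60. plxna3.L was dim in all 4 arrays and differed by −0.05 ± 0.19.

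Slits, secreted repellents, had 5 of 5 lower means. One slit2.S probe set read 6.38 and 6.84 in SP600125 skins, against 7.12 and 6.84 in control skins (difference −0.37 ± 0.26), with a gap of only 0.00317 between the groups. The other read 7.27 and 8.26 in SP600125 skins and 7.99 and 8.00 in control skins (difference −0.23 ± 0.39), with the SP600125 arrays on both sides of the controls. The 3 probe sets of slit1.S differed by −0.26, −0.23 and −0.02, and the brightest read 6.22 and 5.39 in SP600125 skins and 6.53 and 5.53 in control skins. Replicate 2 of each group was the low one in that probe set and in the one with the difference of −0.26, but not in the dim one.

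Robo receptors had 4 of 5 lower means. robo1.L, a receptor for Slits, read 5.67 and 5.57 in SP600125 skins and 6.06 and 5.45 in control skins (difference −0.14 ± 0.28). robo3.S, a divergent Robo that in mice lets commissural axons cross the midline, was measured by 4 probe sets. The brightest read 7.12 and 6.67 in SP600125 skins and 7.55 and 6.81 in control skins (difference −0.29 ± 0.35). The other 3 differed by −0.45, −0.16 and 0.01, and the last 2 of these were dim. In none of the 5 Robo probe sets did the groups separate, against 9.25% of all probe sets below both controls and 11.9% above.

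Netrins are secreted, laminin-related cues. ntn5.L had the next smallest unadjusted p after nrp2.S, with 6.40 and 6.65 in SP600125 skins against 6.81 and 7.40 in control skins (difference −0.58 ± 0.29, unadjusted p = 0.116 and adjusted p = 1 by limma). Its second probe set read 6.41 and 6.26 in SP600125 skins, against 6.60 and 6.51 in control skins (difference −0.22 ± 0.19). Both probe sets placed both SP600125 arrays below both controls, with gaps of 0.154 and 0.101. ntn1.L, the gene of the best-known attractant of Dcc-bearing axons, was dim and differed by −0.05 ± 0.21.

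The receptor genes of this pathway were neo1.L, dcc.L and dcc.S. neo1.L, which encodes a receptor for Rgma and netrins, read 7.82 and 6.51 in SP600125 skins and 8.41 and 7.28 in control skins (difference −0.68 ± 0.63), low in replicate 2 of each group. Its difference was −0.024 without SP600125 replicate 2 and −0.12 without control replicate 1. The 3 Dcc probe sets were all dim, with differences of −0.17 for dcc.L and of 0.27 and 0.01 for dcc.S. One of the dcc.S probe sets placed both SP600125 arrays above both controls, and that of dcc.L placed them below.

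rgma.L encodes a lipid-anchored ligand of neogenin that also acts as a BMP co-receptor. It read 7.78 and 7.90 in SP600125 skins, against 9.17 and 7.92 in control skins, a difference of −0.70 ± 0.48 (SE). The groups did not overlap, but control replicate 2 exceeded SP600125 replicate 2 by only 0.0194, and control replicate 1 alone stood high.

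**Figure D3:**
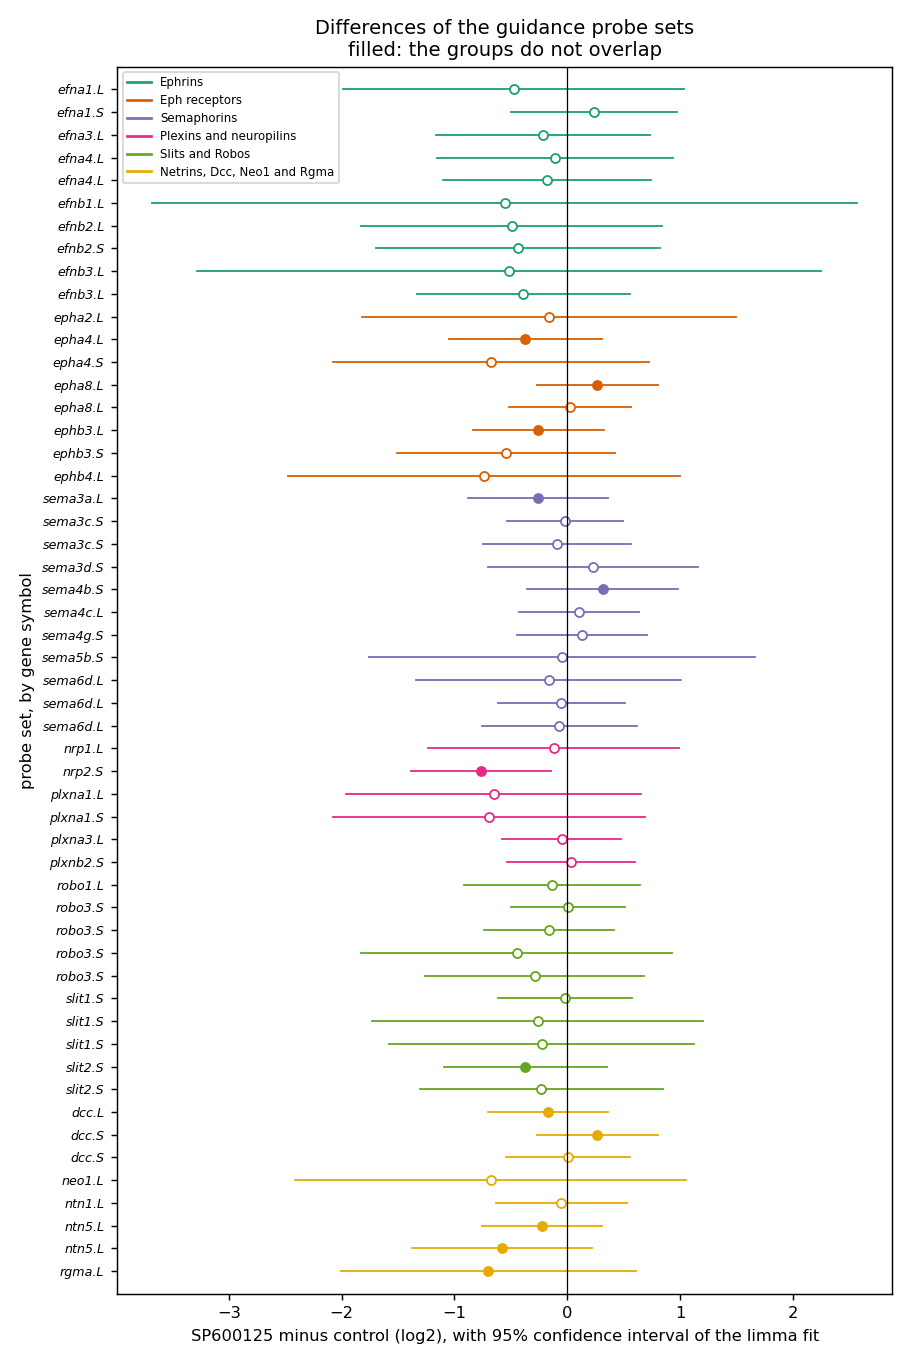
Difference between the group means (SP600125 minus control, log2, x axis) for each of the 53 guidance probe sets (y axis, by gene symbol and coloured by family), with the 95% confidence interval of the limma fit. Filled points mark the 12 probe sets whose groups did not overlap. The interval of nrp2.S, from −1.38 to −0.15, is the only one that leaves out 0.

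Homeologs and repeated probe sets give a limited check on single profiles. Of 6 homeolog pairs measured, 4 had the same sign in their brightest probe sets (efnb2, epha4, ephb3 and plxna1), and efna1 and dcc did not. Of 10 genes with more than 1 probe set, 9 had the same sign in all of them, robo3.S being the exception. Probes of one homeolog can bind transcripts of the other, and probe sets of 1 gene read the same RNA pools, so neither are independent. Like signs were also likely because 42 of 53 guidance means were lower.

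The spread over the 4 arrays was wide for many members. The highest and lowest array differed by at least 1 log2 unit for 20 guidance probe sets, or 37.7%, against 24.1% of all probe sets. Among those with a mean of at least 5 the share was 51.4%, against 30.4% of all probe sets that bright. The most variable were efnb1.L, efnb3.L, ephb4.L and neo1.L, whose replicates within each group also lay far apart, and in all 4 control replicate 1 was the highest array and SP600125 replicate 2 the lowest.

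Guidance pathway partners were taken from a list of intracellular, membrane and secreted proteins, among them Src-family kinases, collapsin response mediators and cofilins. They had a median difference of −0.04, against 0.02 over all genes with 1 probe set each. Of 69 such genes measured, 43 (62.3%) had a lower mean, against 45.9% of all genes. By limma 0 passed at an adjusted p under 0.05 and 0 had an unadjusted p under 0.05. Both SP600125 arrays lay below both controls for 8 of the 69 (11.6%), against 9.10% of all genes, and above both for 1 (1.45%), against 12.3% of all genes. The lowest p belonged to the kinase gene src.L, at 8.90 and 8.56 in SP600125 skins against 9.22 and 9.17 in control skins. Its difference was −0.46 ± 0.22 (unadjusted p = 0.103 by limma). Next came src.S (difference −0.44 ± 0.21) and the dim cfl2.L (difference −0.41 ± 0.20), and all 3 are among those 8. The fourth, pdlim1.L, was the 1 partner above both controls and had the largest positive difference of the list (0.63 ± 0.37).

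Markers of tissue under the skin also lay lower in SP600125 skins, though not in every array. Since all marker lists were chosen with earlier results of these data known, their differences are descriptions only. Over all genes with 1 probe set each, 45.9% had a lower mean. Of 61 neural and neural crest genes 41 had a lower mean (median −0.19), and control replicate 1 was the highest array for 42 of them. Their summed linear levels were 9365 and 9777 in SP600125 skins and 15661 and 8242 in control skins, so that control replicate 1 alone stood high. Of 62 muscle and somite genes 54 had a lower mean (median −0.50), and their summed levels of 4273 and 4555 in SP600125 skins lay below the 14266 and 9020 of control skins.

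Markers of vessels, blood and heart and of endoderm and notochord also lay lower. In the first list 28 of 36 means were lower (median −0.23), with summed levels of 5429 and 5183 in SP600125 skins against 8166 and 7493 in control skins. In the second 23 of 26 were lower (median −0.34), with sums of 2726 and 2323 in SP600125 skins against 4445 and 3676 in control skins. Epidermal genes lay the other way, with 15 of 53 means lower and a median of 0.10, though not in every array. Their median was −0.06 for SP600125 replicate 2 minus control replicate 1, and between 0.08 and 0.33 for the other comparisons of single arrays. Both SP600125 arrays lay below both controls for 51.6% of muscle, 46.2% of endoderm, 27.8% of vessel, 21.3% of neural and 3.77% of epidermal genes. The share over all genes was 9.10%. At least 2-fold below were 18, 5, 3, 3 and 0 genes in that order, against 77 of 11295 genes and 0 guidance probe sets. The part of these tissues in the guidance gene differences was not tested.

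**Figure D4:**
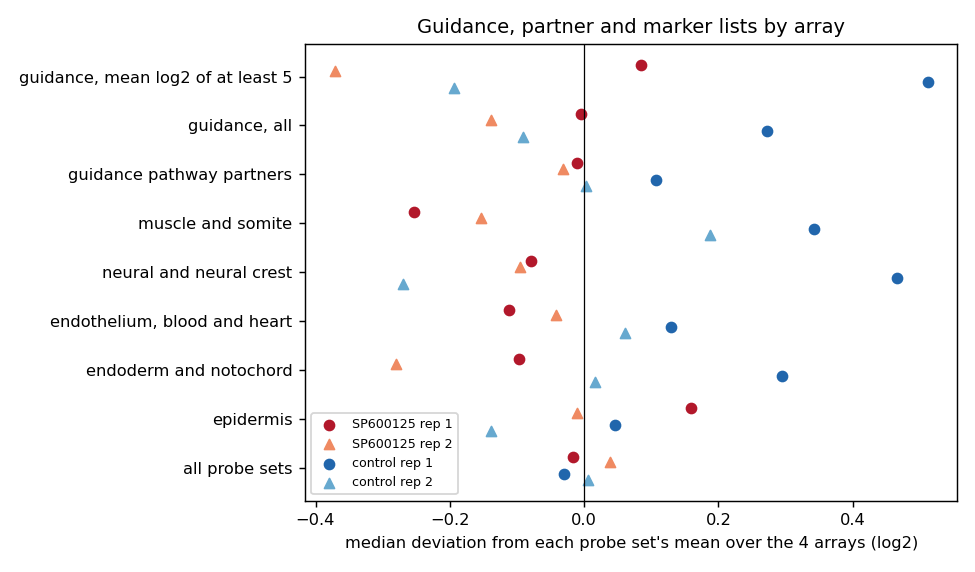
Median deviation of each list from its probe sets' means over the 4 arrays (log2, x axis). The y axis gives the guidance genes, guidance pathway partners, 5 marker lists and all probe sets. Circles are replicate 1 and triangles replicate 2, red for SP600125 and blue for control. For all guidance probe sets control replicate 1 lies at 0.27 and the other 3 arrays between −0.14 and 0.00. For those with a mean of at least 5, control and SP600125 replicate 1 lie at 0.51 and 0.09. Their replicate 2 arrays lie at −0.19 for control and −0.37 for SP600125. For neural genes control replicate 1 lies at 0.47.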

How the data were processed

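Expression was measured on 4 Affymetrix arrays, 2 per group, and groups and replicate numbers were read from the sample titles. The deposited values are log2 levels, 1 per probe set and array. Per the submitters' processing notes they were made with affy and RMA, which corrects background, equalises the arrays' distributions and summarises probes by median polish. A change shared by most transcripts therefore cannot be seen. Versions, options and filters were not given in the sources used here. The array medians of the log2 values lay between 6.85 and 6.94.

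Of 16755 probe sets, 10 array controls were left out. Names came from GEO's platform annotation, which gave 15445 probe sets 1 symbol, 279 several and 1021 none. Of the 39 guidance genes, 38 were found by entrez identifier in a RefSeq gene table, with the same symbol in each case. A further 2 probe sets with several matching symbols were left out. Sequences and genome positions are not reported here.

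Groups were compared by lmFit and eBayes of limma 3.58.1 under R 4.3.3 (constant prior variance, 2 residual and 2.10 prior degrees of freedom, two-sided), with Benjamini-Hochberg adjustment over all 16745 probe sets and a threshold of 0.05. The scripts were tested on simulated data with independent arrays, unlike these data, in which same-numbered arrays deviated together. Confidence intervals are at 95% and unadjusted. Precision is limited by the small number of arrays. A mean log2 level under 5 was called dim. Summed linear levels add 2 to the power of each gene's log2 level.

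From each of 6 families the rule named the 4 genes with the smallest unadjusted p, the gene with the brightest probe set and any gene separated by at least 2-fold, with homeologs. Other lists (5 of markers, 1 of guidance pathway partners) used 1 probe set per gene, the brightest. The members and lists were chosen with earlier results of these data known. Alternatives were a replicate block, a filter on dim probe sets, renewed quantile or cyclic loess normalization, a robust fit with trend, 1 probe set per gene, and each array left out. Figures were drawn with matplotlib 3.10.9.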

Additional observations from a re-analysis of the deposited data

How the results depend on the processing

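No guidance probe set passed at an adjusted p under 0.05 with limma under any of the 10 alternatives, where the smallest adjusted p of a named gene was 0.761. Lower means outnumbered higher ones under each, with 30 to 45 of 53 lower, 33 of 37 without dim probe sets and 31 of 39 with 1 probe set per gene. The median guidance difference lay between −0.40 and −0.02 with an array left out and between −0.26 and −0.16 otherwise. At an unadjusted p under 0.05 the count of guidance probe sets was 1. It was 0 without dim probe sets and 0 to 3 with an array left out. Over all probe sets that count was 269, and it was 158 without dim ones and 149 to 516 with an array left out. The guidance probe sets with both SP600125 arrays above both controls numbered 3, and 1 without dim probe sets, 1 with 1 probe set per gene and 7 to 11 with an array left out. Those below numbered 9, and 15 to 33 with an array left out. With 3 arrays such counts grow over all probe sets too: above, 13.2% to 20.8% of the guidance probe sets against 25.3% to 39.9% of all, and below, 28.3% to 62.3% against 25.2% to 30.3%. Without control replicate 1 the shares below were 28.3% against 25.2%, and without SP600125 replicate 2 they were 28.3% against 28.7%.

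The labels do not say that a replicate number marks a shared clutch or day. The deviations of same-numbered arrays from their group means correlated at 0.59 over all probe sets and 0.60 over the guidance probe sets, as a hint from the data, not the design. Replicate number held 68.2% and treatment 19.1% of the sum of squares of the guidance probe sets, close to the 62.7% and 20.8% over all probe sets. With the replicate number as a block, 9 guidance probe sets (17.0%), all lower, had an unadjusted p under 0.05, against 610 lower (3.64%) among all 16745 and 1063 in either direction, and 0 passed after adjustment.

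Of 38 probe sets of named genes, 20 changed sign when an array was left out. Their lowest and highest values were −0.094 and 0.11 (dcc.S), −0.013 and 0.49 (efna1.S), −1.05 and 0.066 (efnb2.L), −0.95 and 0.075 (efnb2.S), −1.56 and 0.53 (efnb3.L), −0.064 and 0.12 (epha8.L), −0.63 and 0.39 (nrp1.L), −0.076 and 0.15 (plxnb2.S), −0.44 and 0.16 (robo1.L), −0.15 and 0.61 (sema3d.S) and −0.73 and 0.27 (slit2.S). Those of robo3.S were −0.012 and 0.024, −0.66 and 0.079, and −1.02 and 0.12. Those of sema6d.L were −0.30 and 0.16, −0.18 and 0.073, and −0.68 and 0.35. Those of slit1.S were −0.86 and 0.34, −0.18 and 0.14, and −0.73 and 0.27. Renewed quantile normalization turned a robo3.S probe set to −0.014 and a dcc.S probe set to −0.010, and cyclic loess turned them to −0.0085 and −0.0075 and plxnb2.S to −0.017. With an array left out, the groups also no longer held the same replicate numbers. The cause of the sign changes was not tested.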
